A study of Mus musculus with 6 samples.

Results

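The expression of 8 cholesterol synthesis genes was followed through the cell classes of a mouse melanoma, by library and in sedentary against exercised animals. The 8 genes were picked by symbol, namely Hmgcs1, Idi1, Fdft1, Sqle, Lss, Cyp51, Srebf2 and Insig1. All 8 were found among the 31053 genes counted in each of the 6 libraries. The tumours came from YUMMER1.7, a transplantable melanoma line made from a Braf-driven mouse tumour by ultraviolet irradiation, of which 600000 cells had been placed under the skin of male C57Bl/6 mice aged 6 to 8 weeks. The sedentary group holds libraries 1, 2 and 3, and the exercise group holds libraries 5, 6 and 8, whose mice were run for 45 minutes daily at 12 metres per minute, on 14 consecutive days. Both groups therefore carry the same transplanted line, given before the mice were randomised, and differ in running as far as the labels say. Whole tumours were digested for 15 minutes at 37 degrees and profiled by the 10x Genomics 3′ method (version 3), in which a unique molecular identifier (UMI) marks each captured RNA molecule. The labels do not say whether a library is a single tumour, so p-values measure the spread between these libraries.

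Cells make cholesterol from acetyl-CoA through mevalonate, isoprenoids, squalene and lanosterol. When sterols in the endoplasmic reticulum are scarce, the factor SREBP2 (the product of Srebf2) is carried by SCAP to the Golgi, cleaved there, and switches on nearly every enzyme of the route. When sterols are plentiful, INSIG proteins hold SCAP and SREBP2 back, and Insig1 is itself an SREBP target, so its RNA usually moves with the enzymes. Dividing cells need sterol for new membrane, activated T cells raise the pathway as they grow, and macrophages take up and export much sterol through LXR targets such as Abca1 and Apoe.

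Of the enzymes, Hmgcs1 makes HMG-CoA and Idi1 interconverts the isoprenoid building blocks. Fdft1 makes squalene, Sqle oxidises it, Lss closes it into lanosterol, and Cyp51 removes the 14-alpha methyl group of lanosterol. The promoters are shown as background, because SREBP2 acts at such windows with the help of NF-Y, which binds CCAAT. RefSeq windows (GRCm38.p6) from 250 bases before to 50 bases after the start were matched for 6 of the 8 genes, all but Sqle and Fdft1. The 250 bases before the RefSeq start are printed for 3 of them. The GENCODE gene starts given below differ. Those of Srebf2 and Idi1 lie inside the printed stretches, with the marked letters of Idi1 after its GENCODE start. Capitals mark TCACCCCA, the core of a classic sterol element, and CCAAT read on either strand (ATTGG on the printed one).
Hmgcs1 (chr13:119690101-119690350, plus strand): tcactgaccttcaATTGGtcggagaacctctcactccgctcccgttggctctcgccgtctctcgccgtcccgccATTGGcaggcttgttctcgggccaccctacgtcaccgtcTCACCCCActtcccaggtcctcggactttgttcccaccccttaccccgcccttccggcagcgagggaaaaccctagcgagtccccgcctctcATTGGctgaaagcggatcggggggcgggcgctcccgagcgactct
Srebf2 (chr15:82147019-82147268, plus strand): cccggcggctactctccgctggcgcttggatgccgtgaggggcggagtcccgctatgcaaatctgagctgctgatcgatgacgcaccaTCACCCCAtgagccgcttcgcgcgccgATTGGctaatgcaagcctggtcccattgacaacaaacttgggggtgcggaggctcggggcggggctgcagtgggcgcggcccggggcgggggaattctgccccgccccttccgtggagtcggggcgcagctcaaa
Idi1 (chr13:8885356-8885605, plus strand): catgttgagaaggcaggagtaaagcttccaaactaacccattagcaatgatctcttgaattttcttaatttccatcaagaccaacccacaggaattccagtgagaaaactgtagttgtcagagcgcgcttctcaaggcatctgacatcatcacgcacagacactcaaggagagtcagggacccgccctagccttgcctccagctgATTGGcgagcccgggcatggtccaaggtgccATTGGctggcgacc

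In the 300-base windows CCAAT was present on either strand in 6 of 6 of the genes and in 16 of 17 matched genes of a longer sterol synthesis list, against 41.1% of the 27025 genes with a window. TCACCCCA was present in 2 of 6, starting at position -137 in Hmgcs1 and -162 in Srebf2 counted from the start, against 1.77% of all genes. Of the 17 genes of the longer list it was present in 1, Hmgcs1 itself. The E-box CACGTG was present in Insig1 alone of the 6, against 8.09% of all genes. The motifs were chosen with these sequences in view and the matches describe letters, not binding.

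On GRCm38 (GENCODE M21) the genes lie on 5 chromosomes: Hmgcs1 at chr13:119690379-119708260 and Idi1 at chr13:8885501-8892451, Sqle at chr15:59315077-59331192 and Srebf2 at chr15:82147181-82205379, Cyp51 at chr5:4081145-4104746 and Insig1 at chr5:28071363-28078662, Lss at chr10:76531588-76557138 and Fdft1 at chr14:63145150-63179578. The end of Fdft1 overlaps that of Ctsb on the opposite strand from 63145150 to 63145923, and the end of Cyp51 overlaps that of Akap9 from 4081145 to 4081310. Ctsb, a lysosomal protease, stood at a mean of 639.8 counts per 1000000 UMIs of the class (CPM) in tumour-like cells, 1694 in macrophages and 162.4 in CD8 T cells. Akap9 stood at 83.5, 85.7 and 102.3 CPM. Whether the counting used strand is not given in the sources used here, so reads from these ends could be shared, and the values of Fdft1 and Cyp51 are uncertain to that extent.

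The libraries held 97426009 to 131778565 UMIs and, after filters and doublet removal, 7127 to 9832 cells each, 51529 in all. Pairs of libraries shared 19 to 35 cell barcodes, at most 0.391% of the smaller library. Cells were assigned to classes by marker genes, none of which belongs to the cholesterol lists. This gave 31197 tumour-like cells, 6721 macrophages and monocytes, 2461 CD8 T cells, 764 NK cells and smaller classes. The tumour-like class was gated on Cspg4, Cdh2, Nes and other mesenchymal genes with few leukocyte genes. The pigment cell genes Dct, Mlana, Tyr and Sox10 were nearly missing from it, with 9, 7, 5 and 3 of 621410313 UMIs. The whole pigment list, which also holds Pmel and Mitf, averaged 0.055 to 0.23 UMIs per 10000 in unsupervised clusters of tumour-like cells. In macrophage clusters it averaged 0.11 to 0.35, so it did not set the tumour-like cells apart. The name therefore rests on the mesenchymal list. A library is the replicate throughout, and values are CPM summed over the cells of a class. Because the 3′ chemistry captures genes unequally, levels are compared between cells and libraries, not between genes.

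None of the 8 genes passed the test for exercise against sedentary in the tumour-like cells. edgeR's quasi-likelihood test called 0 of 14527 genes there (0%), with 571 at an unadjusted p under 0.05 and 29 called by DESeq2. Of the 8 genes 3 were nominally higher and 5 lower, with a median log2 fold change of -0.05 against 0.01 over all genes. Hmgcs1, the entry enzyme, measured 49.5, 38.3 and 33.4 CPM in sedentary 1, 2 and 3 and 49.8, 32.3 and 29.9 CPM in exercise 5, 6 and 8. Sedentary 1 and exercise 5 were high and the other 4 libraries low, so the groups overlapped (log2 fold change -0.10 ± 0.20 SE). Idi1 gave 41.7, 28.4 and 25.7 CPM against 47.5, 29.6 and 22.1 CPM (0.06 ± 0.28). Again sedentary 1 and exercise 5 stood above the rest.

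The squalene and sterol ring enzymes had the same shape in tumour-like cells. Sqle measured 42.4, 33.6 and 34.1 CPM in the sedentary and 50.5, 28.7 and 31.3 CPM in the exercise libraries (0.02 ± 0.20). Cyp51 measured 53.1, 42.0 and 37.3 CPM against 55.0, 40.8 and 30.3 CPM (-0.06 ± 0.21). Fdft1 lay between 25.2 and 38.0 CPM over the 6 libraries (-0.14 ± 0.16), and Lss, the sparsest, between 5.69 and 9.65 CPM (-0.05 ± 0.22). In each of these the spread inside a group exceeded the difference between the groups. Of the regulators, Srebf2 held 44.6, 38.1 and 37.1 CPM against 44.9, 33.3 and 36.8 CPM (-0.05 ± 0.12), the smallest spread of the 8. Insig1, the sterol-regulated brake, ranged widest, at 14.9, 10.8 and 8.33 CPM against 18.5, 10.97 and 7.69 CPM (0.14 ± 0.32). None of the 8 had groups that did not overlap, against 3.49% of genes wholly higher and 4.89% wholly lower in the exercise group.

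**Figure D1:**
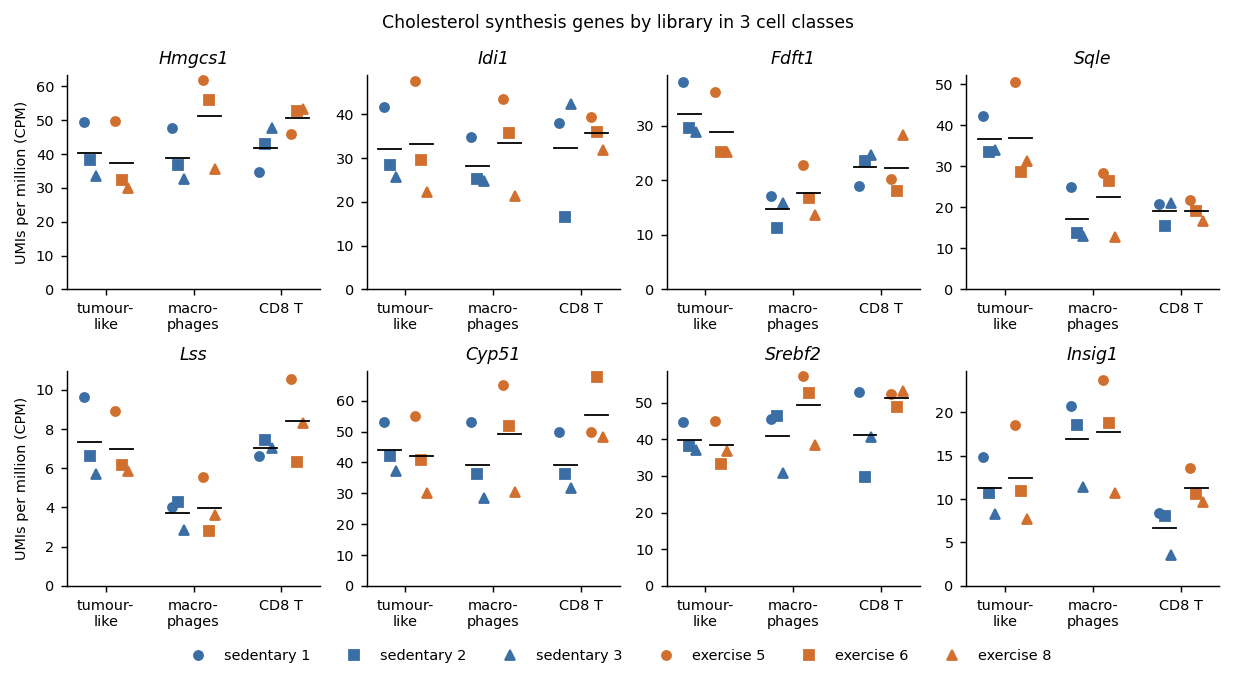
CPM of each of the 8 genes (vertical axes, from 0) in 3 cell classes, with a symbol for each library, sedentary in blue and exercise in orange, and group means as lines. In tumour-like cells sedentary 1 and exercise 5 (circles) are the highest for all 8 genes and the groups overlap for all 8.

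The larger difference in tumour-like cells was between libraries. Sedentary 1 and exercise 5 held the highest CPM values for 8 of the 8 genes, which was so for 11.6% of the 14527 genes tested. The same pair led for 8 of 8 within dividing cells alone (14.5% of genes) and for 8 of 8 among the other cells (9.69%). These libraries were singled out after their values were seen. Their tumour-like cells had median depths of 18722 and 20500 UMIs, between the 14568 of sedentary 3 and the 23928 of sedentary 2. Their mitochondrial shares were the highest of the 6, at 4.42% and 5.03% against 3.78% to 4.10% in the others. The part of RNA quality or of tumour state in this was not tested.

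In macrophages and monocytes all 8 genes were nominally higher after exercise, but none passed the test. edgeR called 0 of 10761 genes (0%), with 277 at an unadjusted p under 0.05 and 2 called by DESeq2. The median log2 fold change of the 8 was 0.26. Hmgcs1 measured 47.7, 36.8 and 32.6 CPM in the sedentary and 61.9, 56.1 and 35.5 CPM in the exercise macrophages (0.37 ± 0.21). Exercise 5 and 6 lay above every sedentary library and exercise 8 did not. Idi1 measured 34.8, 25.2 and 24.8 CPM against 43.4, 35.7 and 21.4 CPM (0.24 ± 0.24).

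Cyp51 in macrophages measured 53.0, 36.1 and 28.4 CPM in the sedentary and 65.0, 51.8 and 30.5 CPM in the exercise libraries (0.31 ± 0.28). Sqle measured 24.96, 13.9 and 12.9 CPM against 28.4, 26.5 and 12.7 CPM (0.39 ± 0.32), so exercise 8 was the lowest of the 6 for Sqle and exercise 5 the highest. Fdft1 ran from 11.2 CPM in sedentary 2 to 22.7 CPM in exercise 5 (0.28 ± 0.23), and Lss from 2.80 to 5.56 CPM (0.09 ± 0.33). Srebf2 measured 45.4, 46.2 and 30.8 CPM against 57.2, 52.5 and 38.5 CPM (0.24 ± 0.19). Insig1 measured 20.7, 18.5 and 11.4 CPM against 23.7, 18.7 and 10.7 CPM (0.05 ± 0.29). All 8 sat above the class mean in sedentary 1 and exercise 5 and 7 of 8 in exercise 6, and none did in sedentary 3 or exercise 8. The groups overlapped for all 8, while 4.51% of genes were wholly higher and 2.3% wholly lower in the exercise libraries. Leaving out a library turned the direction of Idi1, Lss or Insig1.

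The longer list of 22 sterol synthesis genes had 21 nominally higher in exercise macrophages and 0 called. Of 12 sterol sensing genes 11 were nominally higher and 0 were called. The 15 hypoxia genes went the other way in the same cells, with 14 nominally lower, a median of -0.52 and 0 called. In tumour-like cells, where the 8 genes were split in direction, 15 of 15 hypoxia genes were nominally lower as well (median -0.46, 0 called). The summed hypoxia level was 1813, 3149 and 2688 CPM in the sedentary and 2354, 1578 and 2149 CPM in the exercise macrophages. The dendritic cell markers of the class summed to 219.6, 149.2 and 142.8 CPM against 354.1, 354.8 and 166.8 CPM, so exercise 5 and 6, where the enzymes were high, also held the most dendritic marker RNA. The part of either in the levels was not tested. Counts of nominally higher or lower genes, here and for CD8 T cells below, stand without the share of all genes. They therefore describe direction only.

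In CD8 T cells 8 of 8 genes were nominally higher with exercise and none passed the test. For Fdft1 the log2 fold change was 0.0005 in edgeR and -0.0086 in DESeq2, so it had no clear direction. edgeR called 1 of 8811 genes (0.0113%), Serpinb9b, which is no sterol gene (-2.42, adjusted p = 0.0189), and 235 had an unadjusted p under 0.05. Insig1, which holds SREBP2 back, measured 8.38, 8.03 and 3.53 CPM in the sedentary and 13.6, 10.6 and 9.68 CPM in the exercise cells (0.61 ± 0.33). It was the single gene of the 8 whose groups did not overlap, against 5.37% of all genes wholly higher and 2.87% wholly lower in the exercise group. The value rests on 100 UMIs in all, and sedentary 3 held 155 CD8 T cells with 567148 UMIs.

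Cyp51 measured 49.9, 36.1 and 31.7 CPM in sedentary and 49.9, 67.7 and 48.4 CPM in exercise CD8 T cells (0.37 ± 0.20). Srebf2 measured 53.0, 29.8 and 40.6 CPM against 52.2, 48.6 and 53.2 CPM (0.28 ± 0.20), and Hmgcs1 34.9, 43.0 and 47.6 CPM against 45.9, 52.9 and 53.2 CPM (0.28 ± 0.18). In each the lowest libraries were sedentary, and the highest sedentary library reached into the exercise range. Idi1 measured 38.0, 16.6 and 42.3 CPM against 39.3, 36.0 and 31.8 CPM (0.20 ± 0.27), set apart by the low sedentary 2. Fdft1 (17.98 to 28.3 CPM), Sqle (15.5 to 21.8 CPM) and Lss (6.35 to 10.6 CPM) had folds of 0.00 ± 0.22, 0.03 ± 0.23 and 0.32 ± 0.34.

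The libraries were ordered otherwise than in tumour-like cells. Above the class mean lay 4, 1 and 4 of the 8 genes in the sedentary libraries (1, 2, 3) and 7, 6 and 6 in the exercise libraries (5, 6, 8). Of 20 tested sterol synthesis genes 15 were nominally higher and 0 were called. The share of dividing cells was 25.3%, 24.0% and 35.5% of the sedentary and 21.1%, 36.8% and 43.2% of the exercise CD8 T cells. The 10 cell division markers were nominally higher in 10 of 10 cases (median 0.16, 0 called). Their part in the sterol values was not tested.

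**Figure D2:**
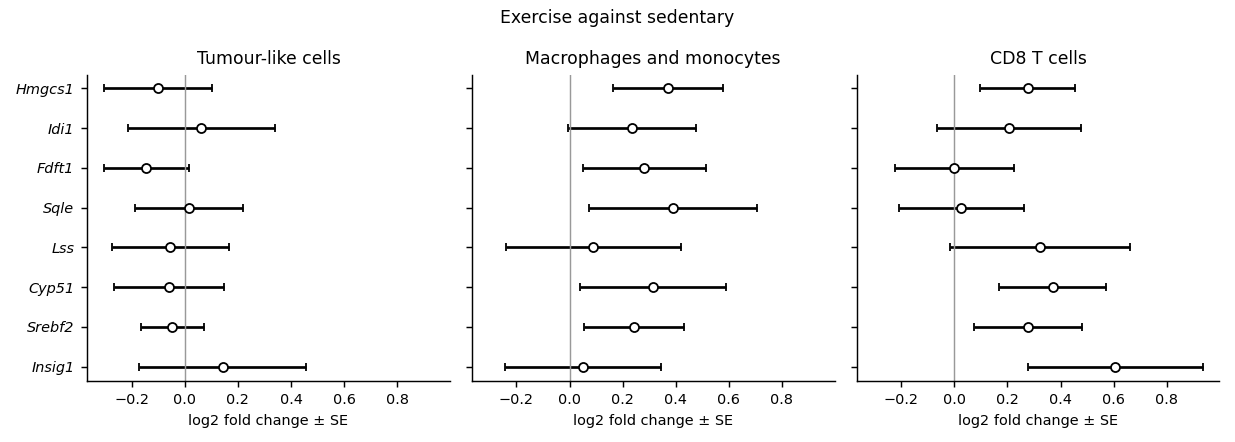
Log2 fold change (exercise against sedentary) of each of the 8 genes in 3 cell classes, with bars of 1 standard error and open circles for genes that did not pass the test. The points of macrophages and CD8 T cells lie at or above 0, those of tumour-like cells on either side of it, and all circles are open.

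The difference between classes in the exercise response was tested directly. For macrophages against tumour-like cells edgeR called 0 of 15029 genes (0%), with 533 at an unadjusted p under 0.05. Of the 8 genes 7 had the higher response in macrophages, with a median difference of 0.33. Hmgcs1 (0.47 ± 0.16), Fdft1 (0.41 ± 0.18) and Cyp51 (0.36 ± 0.15) were under 0.05 before adjustment and had an edgeR adjusted p of 1. For CD8 T cells against tumour-like cells 13 of 14817 genes were called (0.0877%), none of them among the 8. Cyp51 was nearest (0.51 ± 0.23, edgeR adjusted p = 1). In the whole tumour 0 of 15482 genes were called (0%), with 413 at an unadjusted p under 0.05 and 18 called by DESeq2, and 2 of the 8 genes were nominally higher and 6 lower. In NK cells Srebf2 alone of the 8 passed the filter on low counts, and it was not called, with 1 of 4392 genes called (0.0228%).

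Macrophages had less RNA of the enzymes that make, oxidise and close squalene. Against tumour-like cells of the same libraries, macrophages had less Fdft1 (log2 difference -0.92 ± 0.10, edgeR adjusted p = 1.7e-06), less Sqle (-0.92 ± 0.13, adjusted p = 2.5e-05) and less Lss (-0.85 ± 0.14, adjusted p = 6.6e-05). Each was lower in 6 of 6 libraries. The mean Fdft1 level was 16.2 ± 3.9 CPM (SD, n = 6) in macrophages and 30.5 ± 5.4 in tumour-like cells, that of Sqle 19.9 ± 7.5 and 36.8 ± 8.2, and that of Lss 3.86 ± 1.0 and 7.15 ± 1.7. Ctsb, whose end overlaps Fdft1, was higher in macrophages, at 1694 against 639.8 CPM, and its part in the Fdft1 value was not tested. Insig1 was the single gene of the 8 called higher in macrophages, at 17.3 ± 5.2 against 11.9 ± 4.1 CPM (0.56 ± 0.09, adjusted p = 1.0e-04, higher in 6 of 6). Of all genes 36.4% were called higher and 41.4% lower in this comparison, so 1 and 3 of 8 are no more than the share of all genes.

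The other genes did not pass the test between these classes: Hmgcs1 (0.21 ± 0.10, adjusted p = 0.079), Srebf2 (0.20 ± 0.10, 0.085), Idi1 (-0.07 ± 0.08, 0.43) and Cyp51 (0.01 ± 0.09, 0.94). Cells of the classes differ in depth, with medians of 4253 UMIs in macrophages and 17060 in tumour-like cells. When each cell was thinned to 2000 UMIs, which gives every cell the same weight and leaves out 776 macrophages and 900 tumour-like cells of lower depth, all 4 were called higher in macrophages by edgeR, Srebf2 by 0.58 (adjusted p = 0.000242), Hmgcs1 by 0.39 (0.00859), Idi1 by 0.37 (0.00796) and Cyp51 by 0.29 (0.0235). The direction of Idi1 turned in the thinned cells, while the lower Fdft1, Sqle and Lss and the higher Insig1 kept their calls. Without sedentary 3, Srebf2 was called without thinning too (0.28, adjusted p = 0.0192).

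The longer sterol synthesis list, which includes Hmgcs1, Idi1, Fdft1, Sqle, Lss and Cyp51, was called in both directions in the same comparison. Its shares were no more than those of all genes (36.4% higher and 41.4% lower). Of 22 sterol synthesis genes 7 were called higher in macrophages, among them Pmvk (2.15 ± 0.10), Ebp (1.67 ± 0.08) and Mvd (1.01 ± 0.10), which act in the mevalonate and late sterol steps. Another 8 were called lower, namely Fdft1, Sqle and Lss as above and others such as Hsd17b7 (-1.10 ± 0.17) and Acat2 (-1.05 ± 0.15). The efflux and oxysterol list was called higher for 11 of 11 tested genes, with Apoe at 9.07 ± 0.14, Nr1h3 (LXR alpha) at 7.99 ± 0.15, Ch25h at 9.40 ± 0.28 and Abca1 at 2.55 ± 0.17. Several of those are well-known macrophage genes. Of 10 fatty acid synthesis genes 7 were called lower, Me1 by -3.69 ± 0.13 and Scd1 by -2.96 ± 0.11, and 3 higher.

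CD8 T cells had less Sqle and Fdft1 than tumour-like cells, but not less Lss. Sqle was lower by -1.14 ± 0.12 (edgeR adjusted p = 2.9e-09), at 19.1 ± 2.6 CPM, and Fdft1 by -0.65 ± 0.14 (adjusted p = 0.00015), at 22.3 ± 3.9 CPM (SD, n = 6). Sqle was lower in 6 of 6 libraries and Fdft1 in 5 of 6. Ctsb, whose end overlaps Fdft1, was lower in CD8 T cells too, at 162.4 against 639.8 CPM, and its part in the Fdft1 value was not tested. Insig1 was called lower as well, at 8.96 ± 3.3 CPM (-0.54 ± 0.18, adjusted p = 0.0081), but not with cells thinned (-0.23, adjusted p = 0.411) or without sedentary 1 (-0.42, adjusted p = 0.0682). The other 5 were not called, with log2 differences of 0.06 for Hmgcs1, 0.07 for Srebf2, -0.03 for Cyp51, -0.06 for Lss (adjusted p = 0.79 in edgeR) and -0.16 for Idi1. Of all genes 30.7% were called higher and 40.2% lower, so 3 of 8 called lower is no more than the share of all genes. Among the other sterol genes, Lbr (1.52 ± 0.09) and Ebp (1.48 ± 0.10) were higher in CD8 T cells and Msmo1 (-1.30 ± 0.11) and Fdps (-1.14 ± 0.11) lower. In the longer list, Sqle and Fdft1 included, 6 of 22 were called higher and 8 lower. Uptake genes were lower in 9 of 10, with the sterol carrier Stard4 the exception (2.001 ± 0.13).

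Between both immune classes, Insig1 was lower in CD8 T cells than in macrophages (-0.97 ± 0.17, edgeR adjusted p = 3.1e-05, 6 of 6 libraries) and Lss higher (0.90 ± 0.22, adjusted p = 0.00099, 6 of 6). Of all genes 34.6% were called higher and 34.7% lower. Fdft1 was just short of the threshold (0.37 ± 0.17, adjusted p = 0.051) and passed it without exercise 5 (0.58, adjusted p = 0.0055) or without exercise 6 (0.42, adjusted p = 0.0445). Some RNA of tumour-like cells was present in both immune classes. The mesenchymal list summed to 234.4 to 342.1 CPM in CD8 T cells and 208.9 to 349.1 CPM in macrophages, against 3697 to 4342 CPM in tumour-like cells. No correction was made for it, and its part in the class differences was not tested.

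**Figure D3:**
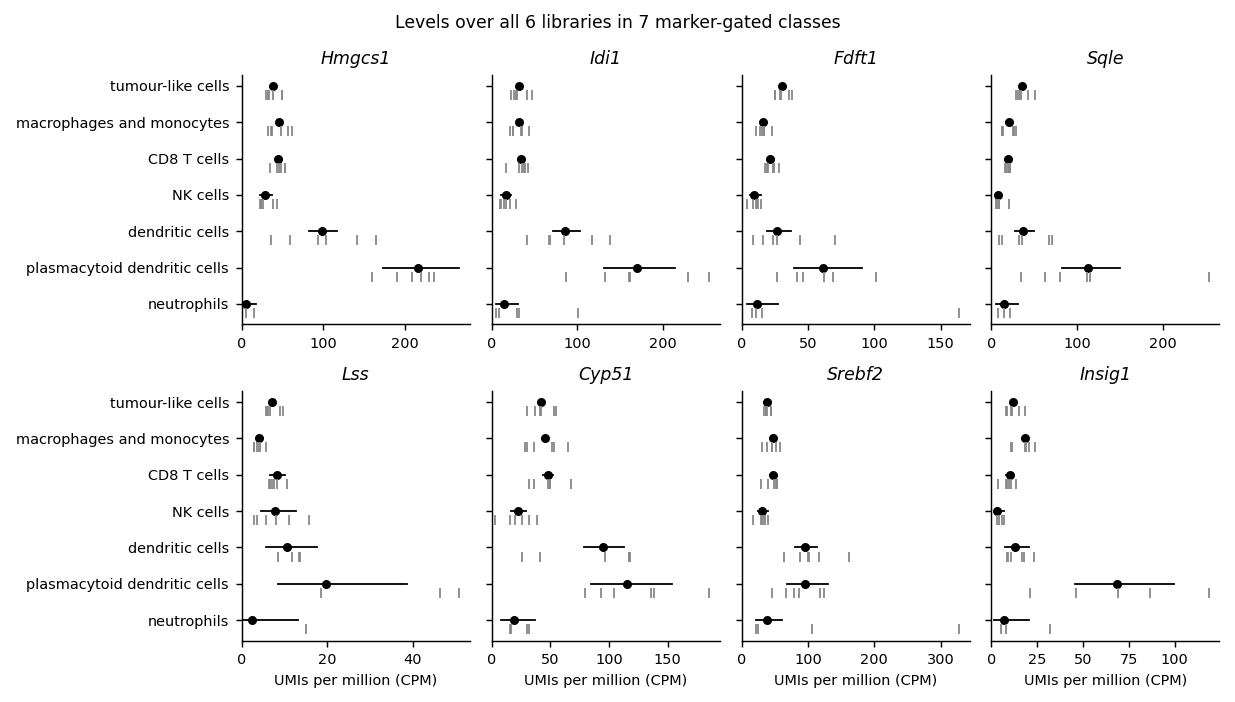
Level of each of the 8 genes in CPM (horizontal axes, from 0) in 7 marker-gated classes, with the pooled level as a point, its 95% Poisson interval as a bar (counting error only) and each library as a grey tick. Plasmacytoid dendritic cells hold 216.0 CPM of Hmgcs1, against 28.7 in NK cells and 4.72 in neutrophils.

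All the enzymes but Lss were highest in a small class, the plasmacytoid dendritic cells, which are interferon-producing cells of the lymphoid dendritic lineage. Its 113 cells gave a pooled Hmgcs1 level of 216.0 CPM (95% Poisson interval 173.2 to 266.1, counting error only). By library it was 235.3, 228.9 and 190.04 CPM in the sedentary and 219.9, 208.1 and 159.6 CPM in the exercise libraries, so all 6 lay above every library of the 3 large classes. Idi1 stood at 169.4 CPM (131.8 to 214.3), Cyp51 at 115.4, Sqle at 112.9, Srebf2 at 95.7, Insig1 at 68.7, Fdft1 at 61.4 and Lss at 19.6 CPM (8 UMIs). Mast cells and basophils held more Lss, at 39.7 CPM (12.9 to 92.6), but on 5 UMIs. Of the plasmacytoid dendritic cells 43.4% had a Hmgcs1 UMI, and 29.7% after thinning to 2000 UMIs. With fewer than 20 cells in some libraries the class had no test.

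Other dendritic cells (217) came next among immune cells for Hmgcs1, at 98.9 CPM (82.8 to 117.3), with Srebf2 at 95.9, Cyp51 at 94.4 and Idi1 at 86.2 CPM, but held only 12.7 CPM of Insig1. The 61 fibroblasts held 106.1 CPM of Hmgcs1 and the 181 regulatory T cells 54.2 CPM. In the regulatory T cells Lss had 0 of 626908 UMIs, with a 95% Poisson upper bound of 5.88 CPM. NK cells were low for all but Lss, with Hmgcs1 at 28.7, Srebf2 at 31.0, Cyp51 at 22.2, Idi1 at 16.2, Fdft1 at 9.73, Sqle at 7.87 and Insig1 at 3.24 CPM. Their Lss stood at 7.87 CPM (17 UMIs), against 7.06 in tumour-like cells, 4.09 in macrophages and 8.20 in CD8 T cells. In the 289 neutrophils Hmgcs1 had 2 UMIs of 423430 (4.72 CPM, 0.572 to 17.1), while Srebf2 stood at 37.8 CPM (21.6 to 61.4). The share of neutrophils with a Hmgcs1 UMI was 0.692%, at a median depth of 1216 UMIs. In NK cells it was 7.07% (6.22% thinned) at 2308 UMIs, and in CD8 T cells 12.3% to 15.0% by library (6.70% to 8.73% thinned).

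In macrophages 12.7% to 21.2% of cells had a Hmgcs1 UMI (5.84% to 11.2% thinned), and in tumour-like cells 29.2% to 42.4% (4.95% to 8.40% thinned). The high share in tumour-like cells went with their depth, and at equal depth the 3 large classes overlapped.

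Dividing tumour-like cells carried more RNA of all 8 genes. A cell was called dividing from 10 cell cycle markers such as Mki67 and Top2a, which gave 8254 of 31197 tumour-like cells, with 4261 cells near the limit. All 8 genes were called higher in dividing cells in edgeR with the library as a block, against 35.2% of genes called higher and 35.2% called lower, and each was higher in 6 of 6 libraries. The median log2 difference of the 8 was 0.55, against -0.02 over all genes. Sqle differed most (0.79 ± 0.07, adjusted p = 2.9e-06), at 58.9, 42.1 and 48.7 CPM in sedentary and 61.3, 36.9 and 50.2 CPM in exercise dividing cells. The other cells of the same libraries had 33.1, 28.2 and 27.4 CPM and 42.8, 22.9 and 23.2 CPM. The ranges overlapped through exercise 5 alone, whose other cells exceeded the dividing cells of sedentary 2 and exercise 6.

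Idi1 followed with 0.72 ± 0.06 (adjusted p = 1.0e-06), from a mean of 26.7 ± 8.5 CPM in other cells to 42.6 ± 11.4 in dividing cells (SD, n = 6). Insig1 differed by 0.58 ± 0.07, Hmgcs1 by 0.55 ± 0.05, Srebf2 by 0.54 ± 0.04, Cyp51 by 0.46 ± 0.06 and Fdft1 by 0.40 ± 0.05. Lss differed least (0.26 ± 0.06, adjusted p = 0.0043) and was not called after thinning to 2000 UMIs (0.048, adjusted p = 0.828), while the other 7 kept their calls. Dividing cells held a median of 27013 UMIs and the others 15090.

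**Figure D4:**
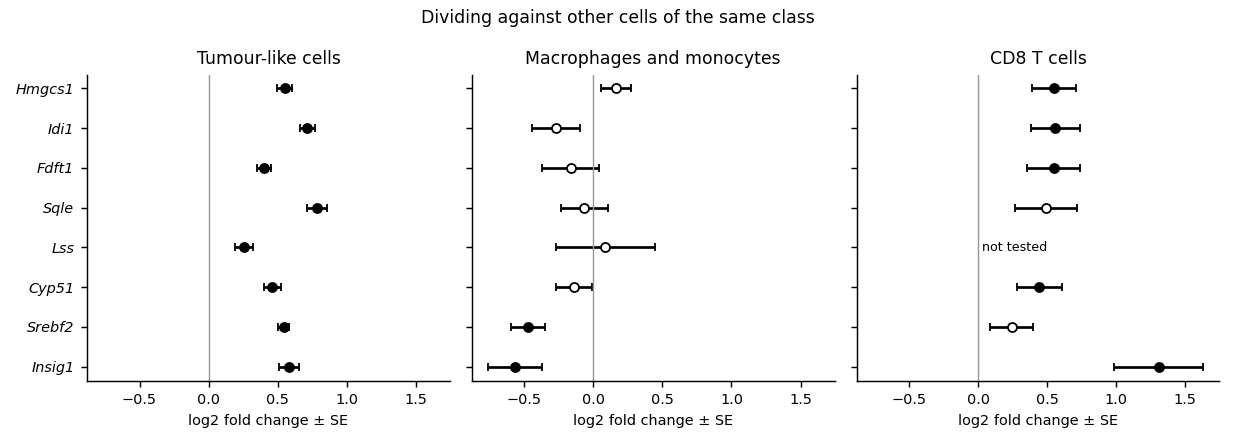
Log2 difference of dividing against other cells for each of the 8 genes in 3 classes, with bars of 1 standard error and filled circles for calls of the test. All 8 are filled and above 0 in tumour-like cells, from 0.26 for Lss to 0.79 for Sqle, and in macrophages the filled circles of Srebf2 and Insig1 lie below 0.

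The wider pathway moved with them in tumour-like cells. Of 22 sterol synthesis genes, which include the enzymes above, 20 were called higher, against 35.2% of all genes. Among them were Lbr (1.37 ± 0.04) and Msmo1 (0.82 ± 0.07). Ggps1, which leads to geranylgeranyl rather than sterol, was called lower (-0.15 ± 0.04). Mvd was not called. Tmem97 (1.35 ± 0.06) and Stard4 (0.73 ± 0.06), which serve sterol transport and are SREBP targets, were higher. Mylip, an LXR-driven ubiquitin ligase, was lower (-1.45 ± 0.08), as was the LXR target Abca1 (-1.91 ± 0.06). Insig2, unlike Insig1, was lower (-0.46 ± 0.03). Of 15 hypoxia genes 13 were called lower in the same cells and of 10 fatty acid synthesis genes 7 were called higher. The part of the hypoxia genes in the sterol values was not tested.

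In CD8 T cells 686 of 2461 cells were called dividing and 581 lay near the limit. edgeR called 5 of 7 tested genes higher and 0 lower, against 15.3% and 14.7% of genes, and Lss did not pass the filter on low counts. Insig1 differed by 1.31 ± 0.32 (adjusted p = 0.0024) and was higher in dividing cells of 6 of 6 libraries, at 11.2, 15.7 and 3.63 CPM in the sedentary and 22.0, 12.9 and 14.8 CPM in the exercise dividing cells. The other cells had 6.57, 3.62 and 3.43 CPM and 8.13, 8.30 and 3.16 CPM. These Insig1 levels rest on 65 UMIs in dividing and 35 in other CD8 T cells of all libraries. Sedentary 3 was nearly equal, with a log2 ratio of 0.06 (1 CPM added to each level). Idi1 (0.56 ± 0.18, adjusted p = 0.016), Hmgcs1 (0.55 ± 0.16, 0.0094), Fdft1 (0.55 ± 0.19, 0.031) and Cyp51 (0.44 ± 0.16, 0.041) were also called. Sqle (0.49, adjusted p = 0.10) and Srebf2 (0.24, 0.26) were not.

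Most of these calls depended on the tool or on a single library. DESeq2 called none of the 5, though its folds were of similar size, at 1.31 for Insig1 (adjusted p = 0.0520), 0.58 for Fdft1 (0.209), 0.57 for Idi1 (0.134), 0.51 for Hmgcs1 (0.131) and 0.36 for Cyp51 (0.342). With cells thinned Insig1 and Hmgcs1 kept their edgeR calls, and Idi1 (0.53, adjusted p = 0.226), Fdft1 (0.80, 0.147) and Cyp51 (0.52, 0.0795) did not. Leaving out a library ended the edgeR call of Fdft1 for each library but sedentary 3 (folds of 0.49 to 0.61 over the 6 fits), of Cyp51 for sedentary 1, sedentary 2 and exercise 5 (0.21, adjusted p = 0.427, the lowest), of Idi1 for sedentary 2 (adjusted p = 0.0528) and exercise 5 (0.0924), and of Hmgcs1 for exercise 5 (0.39, adjusted p = 0.113). Sqle was called without sedentary 1 (0.71, adjusted p = 0.0411). Insig1 kept its call in every such fit. Among the other sterol genes Tmem97 (1.44 ± 0.20), Lbr (0.88 ± 0.10) and Sc5d (0.66 ± 0.21) were called higher in dividing CD8 T cells, in edgeR. Of 16 tested sterol synthesis genes 8 were called higher, including Idi1, Hmgcs1, Fdft1 and Cyp51.

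None of the 8 genes was called higher in dividing macrophages. Of 6721 macrophages and monocytes 664 were called dividing, with 941 near the limit, and 2 of the 8 genes were called lower, against 14.8% of genes in each direction. Srebf2 was lower in dividing cells of 6 of 6 libraries (-0.48 ± 0.12, edgeR adjusted p = 0.0052), at a mean of 35.5 ± 9.5 against 46.8 ± 9.8 CPM (SD, n = 6). Insig1 was lower in 5 of 6 (-0.57 ± 0.19, adjusted p = 0.032), at 12.99 ± 6.8 against 18.2 ± 5.3 CPM. Neither kept its call with cells thinned (Srebf2 -0.27, adjusted p = 0.373, and Insig1 -0.81, adjusted p = 0.0939). Insig1 also lost it in DESeq2 (-0.61, adjusted p = 0.0959) and in each fit that left out a library other than sedentary 2, where the highest adjusted p was 0.126 without exercise 5. Idi1 was called lower without sedentary 1 (-0.52, adjusted p = 0.0238). Among the other sterol genes Lbr (1.17 ± 0.09) and Tmem97 (0.84 ± 0.14) were higher in dividing macrophages. Whether the response to division differs between the classes was not tested.

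Unsupervised clusters of the tumour-like cells, built without the 8 genes or the cholesterol lists, spread widely. Cluster 0, led by Cdca7, Idi1, Dtl, Cyp51 and Cdt1, of which Cdca7, Dtl and Cdt1 serve DNA replication, held the most Cyp51 (76.7 ± 16.7 CPM, SD, n = 6), Hmgcs1 (59.9 ± 15.0) and Idi1 (59.5 ± 16.4). Cluster 14, led by the mitotic genes Cenpf and Aspm, held the most Sqle (58.4 ± 10.5) and Srebf2 (50.6 ± 6.8). The low end was cluster 10, led by Hmox1, Cxcl1 and Ero1l, with 13.7 ± 4.5 CPM of Cyp51 and 9.95 ± 4.0 of Idi1. These are descriptions, since clusters follow the expression of the same cells.

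Cluster make-up differed between libraries. Cluster 0 took 15.3%, 25.02% and 18.1% of sedentary and 32.2%, 16.8% and 15.8% of exercise tumour-like cells. So exercise 5 was rich in it and sedentary 1 was not. Within cluster 0 itself Cyp51 measured 106.3, 70.9 and 64.3 CPM in the sedentary and 81.0, 78.7 and 59.2 CPM in the exercise libraries, and Idi1 85.8, 49.5 and 43.2 CPM against 71.9, 58.9 and 47.6 CPM. Sedentary 1 and exercise 5 were thus the highest libraries for both genes inside a single cluster too. Cluster 10 made up 18.5% of the tumour-like cells of sedentary 2 and 0.637% of those of exercise 6.

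**Figure D5:**
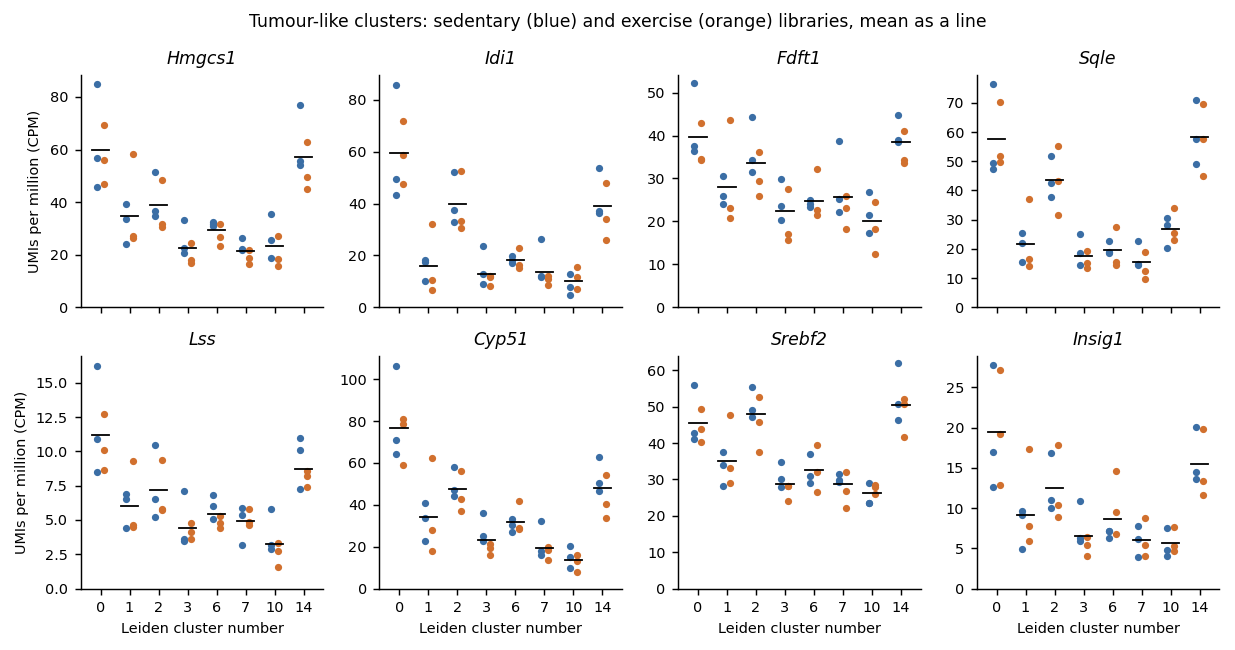
CPM of each of the 8 genes (vertical axes, from 0) in the 8 clusters of tumour-like cells, with a point for each library, sedentary in blue and exercise in orange, and the mean of the 6 as a line. Cluster 0 is highest for Cyp51, Hmgcs1 and Idi1, cluster 14 for Sqle and Srebf2, and cluster 10 lowest for Idi1 and Cyp51.

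Over the 18 values from 6 libraries and 3 classes, each class centred on its own mean of log2(CPM + 1), each gene was set against the mean of the other 7. Pearson's r was 0.86 for Cyp51, 0.84 for Hmgcs1, 0.82 for Sqle, 0.77 for Srebf2, 0.76 for Idi1, 0.71 for Insig1, 0.61 for Lss and 0.53 for Fdft1. The points share libraries, depth and pathway, so r is a description. Of 8448 genes tested in all 3 classes, the 10 most like the mean of the 8 included Hnrnph1 (0.92), G3bp1 (0.90), Kpnb1 (0.88), Fdps (0.87), Stard4 (0.87), mt-Nd4 (0.87), mt-Nd1 (0.85), Naa15 (0.84) and Sc5d (0.84). Fdps and Sc5d are sterol synthesis enzymes and Stard4 a sterol carrier, while mt-Nd4 and mt-Nd1 are mitochondrial genes, whose share was highest in sedentary 1 and exercise 5. In single tumour-like cells thinned to 2000 UMIs (30297 cells), pairs of the 8 genes had r from 0.00607 (Lss with Srebf2) to 0.138 (Hmgcs1 with Idi1), too weak in sparse counts to be read.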

How the data were processed

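Single-cell RNA was measured in 6 libraries of whole dissociated tumours, 3 sedentary and 3 exercise. The authors deposited raw UMI counts per gene and barcode. The submitters' processing notes name Cell Ranger 6.1.2 and mm10, the matrix headers give software version 3.1.0, and which made the counts is not settled. A barcode was kept if it had at least 300 genes and 500 UMIs and its mitochondrial share was 20% or less (52390 of 58351), and Scrublet in scanpy 1.11.5 removed 861 doublets (0.946% to 2.42% of a library).

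Cells with at least 1000 UMIs were gated on marker lists per 10000 UMIs, and 9372 fell in no class. Gate limits were set after list levels in Leiden clusters (leidenalg 0.10.2) were seen. The 8 genes and all lists were chosen with earlier results of these data known. Of the listed genes, named ones passed the threshold or had the smallest p of their list, and the 10 most like the 8 had the highest Pearson r.

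Counts were summed per library and class and tested with edgeR 4.0.16 (quasi-likelihood, TMM, filterByExpr, Benjamini-Hochberg over all genes tested, threshold 0.05, R 4.3.3), with the library as a block for comparisons within libraries. SE is the size of the log2 fold change over the root of F. The scripts were tested on simulated data. Alternatives were DESeq2 1.42.0, RLE size factors, no filter on low counts, a 10% mitochondrial limit, doublets kept, Leiden classes, cells thinned to 2000 UMIs and each library left out. In the 3 large classes sums ran from 567148 UMIs (CD8 T cells of sedentary 3) to 117487458 (tumour-like cells of exercise 6). NK cells had less, down to 285128 UMIs in sedentary 1, and splitting a class by division made its sums smaller. This limits the sparse genes in CD8 T and NK cells. Some results for listed genes are not reported here.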

Additional observations from a re-analysis of the deposited data

Results flagged for a closer look

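Both values below are log2 ratios of dividing against other CD8 T cells within a single library, with 1 CPM added to each level. In exercise 6 Hmgcs1 was lower in dividing cells, at -0.518, whereas the other 5 libraries lay between 0.43 and 0.98. In the same library Fdft1 was higher in dividing cells by 1.24, above the 0.39 to 0.69 of the others. Exercise 6 lay far from the rest of the group in both cases by Dixon's criterion. Of 48 sets of ratios checked, chance marks about 1 in 20. Exercise 6 held 93 dividing CD8 T cells.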

How the results depend on the processing

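Counts of called genes depended on the tool more than the direction of the 8 genes did. DESeq2 called 18 genes in the whole tumour, 29 in tumour-like cells and 2 in macrophages for exercise, and 1229 for dividing CD8 T cells. Without the filter on low counts edgeR called 2 in tumour-like cells, 6 in macrophages, 35 in CD8 T cells and 14 in NK cells, and with Leiden classes 0 in CD8 T cells. With cells thinned, dividing against other cells called 6108 genes in tumour-like cells, 1444 in macrophages and 1006 in CD8 T cells. Leaving out a library gave 0 to 3 calls in CD8 T cells (0 without sedentary 2 or exercise 8, 3 without exercise 6), 1 to 3 in NK cells (3 without sedentary 2), 0 to 3 for the response of macrophages against tumour-like cells (3 without exercise 5) and 4 to 45 for that of CD8 T cells (4 without sedentary 3, 26 without sedentary 2, 32 without exercise 5 or 6, 45 without exercise 8). The cause was not tested. Of the log2 values of the 8 genes with a library left out, 442 kept direction and side of the threshold, 55 turned, 17 lost and 5 gained a call.

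With all 6 libraries, values that turned direction lay within 0.1 of 0 apart from thinned Idi1 (0.37, called by edgeR with adjusted p = 0.00796, and -0.38) and thinned Cyp51 (0.21). For exercise in CD8 T cells Fdft1 gave -0.0086 in DESeq2, -0.016 with the 10% mitochondrial limit and -0.016 with doublets kept, and Sqle -0.034 with Leiden classes. For macrophages against tumour-like cells Cyp51 gave -0.065 without the filter and Idi1 0.37 thinned. For CD8 T cells against tumour-like cells Cyp51 gave 0.024 (RLE), 0.029 (DESeq2) and 0.21 (thinned). Against macrophages Idi1 gave -0.020 (RLE), -0.050 (no filter) and -0.38 (thinned), Cyp51 -0.017, -0.047 and -0.065 in the same order, and Sqle 0.012 thinned. In dividing macrophages Lss gave -0.0044 in DESeq2 and Cyp51 0.028 thinned.

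Ranges over left-out libraries that spanned 0 were, for exercise in tumour-like cells, Hmgcs1 -0.35 to 0.046, Sqle -0.27 to 0.16, Idi1 -0.28 to 0.28, Lss -0.26 to 0.17, Cyp51 -0.29 to 0.12, Srebf2 -0.16 to 0.043 and Insig1 -0.25 to 0.38. In macrophages they were Idi1 -0.031 to 0.46, Lss -0.29 to 0.28 and Insig1 -0.26 to 0.30, and in CD8 T cells Sqle -0.12 to 0.15, Idi1 -0.15 to 0.50 and Fdft1 -0.19 to 0.11. Between classes they were Cyp51 -0.073 to 0.080 (macrophages against tumour-like), Hmgcs1 -0.048 to 0.23, Lss -0.11 to 0.11 and Cyp51 -0.12 to 0.070 (CD8 T against tumour-like), and Hmgcs1 -0.18 to 0.078, Idi1 -0.069 to 0.13, Cyp51 -0.089 to 0.17 and Srebf2 -0.14 to 0.087 (CD8 T against macrophages). For dividing cells they were Sqle -0.20 to 0.0037 and Lss -0.13 to 0.27 in macrophages and Srebf2 -0.0082 to 0.37 in CD8 T cells. For the difference of responses to tumour-like cells they were Lss -0.098 to 0.37 and Insig1 -0.19 to 0.074 in macrophages, and Sqle -0.15 to 0.16, Idi1 -0.059 to 0.49 and Fdft1 -0.17 to 0.44 in CD8 T cells.

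Limits: gates rest on RNA alone, free RNA was not removed, the labels give no batch, and 3 libraries a group leave small folds undetectable. No paired analysis was possible because the groups share no replicate numbers.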
